A study of Mus musculus with 9 samples.

Results

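The epithelium of the colon secretes proteins that bind, kill or hold off bacteria. The 9 genes described here encode such products: the resistin-like molecule Retnlb, the angiogenin-family ribonuclease Ang4, the pentraxin Mptx1, the C-type lectins Reg3b and Reg3g, the Ly6/PLAUR-domain protein Lypd8, the intelectin Itln1, the lectin-like mucus protein Zg16, and Pigr, the receptor that carries polymeric immunoglobulin across the epithelium. They were chosen by symbol, as secreted or transporting defence products whose levels in these same libraries, and whose contrast between environments, were known when the list was drawn up. No threshold was stated, and their levels and contrast are therefore given as a description. All 9 had counts, out of 22262 genes with a count in any library, and all 9 passed the filter on low counts that left 17441 genes.

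The libraries came from the upper colon (pieces of 2 to 3 cm) of female wild-type C57BL/6N mice aged 12 months. No allele or agent was added to either group. In the standard environment (WT_SE, mice 1, 2, 3 and 5), animals lived 3 to 4 to a cage. In the enriched environment (WT_EE, mice 1 to 5, labelled enhanced environment), 8 females shared a larger cage with running wheels, tunnels, climbing cubes and objects that were moved around, from weaning on. The labels do not say which mice shared a cage, so housing and cage cannot be told apart, and the tests measure the spread between these 9 animals. Transgenic mice of the same experiment are not analysed here.

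As background, the colonic mucosa keeps bacteria at a distance by several routes. Goblet cells release mucus that holds Zg16, which binds the wall of Gram-positive bacteria, and Retnlb, which acts on Gram-negative bacteria and is induced by type 2 cytokines. Secretory cells of the crypt base can release Ang4, Itln1 and Mptx1. Reg3g and Reg3b bind peptidoglycan or bacterial membranes and are induced through IL-22 and STAT3. Lypd8 coats flagellated bacteria in the colon, and Pigr is cleaved at the luminal surface so that secretory IgA is set free. Several of these genes are known to differ in level along the length of the intestine.

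Each library gave 295535 to 454043 molecule counts, and the floor of 3 counts used for a detectable level equals 6.61 to 10.2 CPM (counts scaled to a common library size). Because each transcript is counted next to its poly(A) tail, counts do not grow with transcript length. Counts of abundant genes grew less than in proportion to the library totals. The slope on logarithmic axes was 0.426 for the 422 genes averaging 100 to 150 counts and 0.593 for the 52 genes above that. It was 0.873 for the 1933 genes averaging 50 to 100. For rarer genes it was 1.26 (3405 genes averaging 20 to 50) and 1.34 (5018 genes averaging 5 to 20). The mitochondrial transcript mt-Co1, among the most abundant messages of any tissue, had 177 to 221 counts, near the level of Lypd8. Gm42418 had 1177 to 1393 counts, so the level of mt-Co1 was not an upper limit for every gene. Differences among the members with more than about 100 counts are therefore taken to be compressed on this scale, by an amount that was not tested. The libraries stood apart in markers of position along the gut. Slc10a2, the bile acid transporter of the ileum and the beginning of the colon, had 103 and 110 counts in WT_SE mice 2 and 3 and 107 and 117 in WT_EE mice 1 and 3, but 3 to 26 in the other 5 mice. Hoxb13, a Hox gene of the posterior hindgut, had 0 to 4 counts in WT_SE mice 1, 2 and 3 and in WT_EE mouse 1, against 56 in WT_SE mouse 5 and 20 to 45 in WT_EE mice 2 to 5. Both values are set beside the members that move with them.

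The 9 members formed a steadier class of high counts and a more variable class. Zg16, Lypd8 and Pigr ranked 19, 18 and 25 among all genes by mean count. In WT_SE the order of mean levels was Lypd8, Zg16, Pigr, Retnlb, Reg3b, Mptx1, Reg3g, Ang4 and Itln1. The step from Pigr to Retnlb was the only one between neighbours at which the ranges over the 4 mice did not overlap. In WT_EE the order was Zg16, Lypd8, Pigr, Mptx1, Retnlb, Ang4, Reg3b, Itln1 and Reg3g, and the ranges of every pair of neighbours overlapped. The variation between mice of one environment was 11.1% for Lypd8, 11.9% for Pigr and 17.8% for Zg16 (edgeR's biological coefficient of variation), close to the 15.1% estimated over all genes. It was 43.5% for Itln1, 44.1% for Retnlb, 46.9% for Ang4, 56.4% for Reg3g, 67.1% for Mptx1 and 71.1% for Reg3b. These estimates are drawn toward the trend over all genes and can fall short of the plain spread. For Mptx1 the SD was 239 CPM on a mean of 137 CPM in WT_SE, and 286 on 444 CPM in WT_EE. Together the 9 genes took 0.186% to 0.343% of a library's counts.

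**Figure D1:**
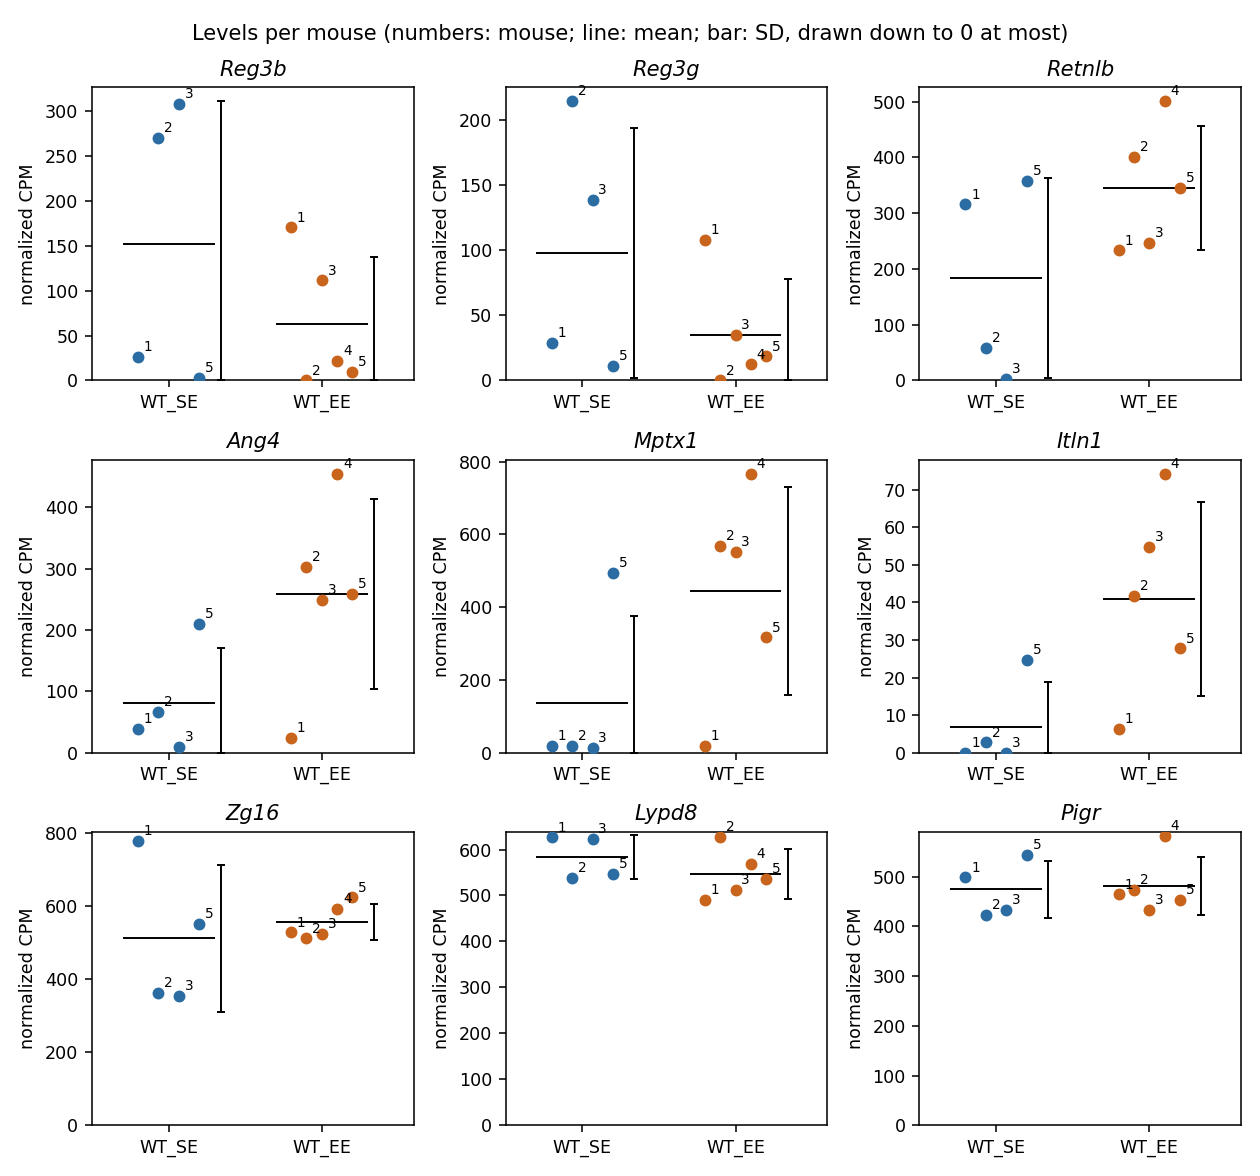
Normalized CPM of the 9 members in each mouse, with WT_SE in blue and WT_EE in orange, the mouse number beside each point, a line at the group mean and a bar of 1 SD that is drawn no lower than 0. Mptx1 sits between 13.5 and 19.5 CPM in WT_SE mice 1, 2 and 3 and at 494.7 CPM in mouse 5, while Lypd8 and Pigr stay between 423 and 627 CPM in all 9 mice.

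Reg3b and Reg3g, the secreted lectins, were high in the same mice of both environments. Both are protein-coding genes of chromosome 6 in GRCm38, Reg3b at 78370657 to 78373466 (plus strand) and Reg3g at 78466269 to 78468872 (minus strand). Their promoters are shown because the pair moved together. The bases run 5′ to 3′ from 250 before to 50 after the start site (RefSeq, GRCm38.p6). Reg3b is at chr6:78370635-78370934 on the plus strand and Reg3g at chr6:78468825-78469124 on the minus strand, and capitals mark matches on either strand to TATAAA (the TATA box), TTTATNG (CDX and posterior HOX type), TTCNNNGAA (STAT type) or CACGTG (E-box).
Reg3b: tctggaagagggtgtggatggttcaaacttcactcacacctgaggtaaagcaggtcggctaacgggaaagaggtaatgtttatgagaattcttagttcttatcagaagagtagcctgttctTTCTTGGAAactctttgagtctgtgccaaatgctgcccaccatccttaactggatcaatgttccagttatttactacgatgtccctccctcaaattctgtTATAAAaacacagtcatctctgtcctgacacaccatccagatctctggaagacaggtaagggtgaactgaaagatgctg
Reg3g: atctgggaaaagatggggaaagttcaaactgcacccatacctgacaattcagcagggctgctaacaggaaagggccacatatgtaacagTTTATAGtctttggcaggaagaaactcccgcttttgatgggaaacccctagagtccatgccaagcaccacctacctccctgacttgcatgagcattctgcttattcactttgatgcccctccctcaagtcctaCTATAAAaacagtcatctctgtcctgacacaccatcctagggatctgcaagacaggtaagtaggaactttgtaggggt

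The promoters of the pair were the same at 207 of 296 aligned bases (69.9%), with a longest identical run of 29 bases, whereas the other 20 pairs of member promoters shared runs of at most 10 bases. Both hold TATAAA on the sense strand, starting 29 bases before the start site in Reg3b and 27 in Reg3g. Reg3b holds 1 match to the STAT-type letters TTCNNNGAA, 129 bases before the start, and Reg3g holds none in this window. Reg3g holds TTTATNG, a letter pattern of CDX and posterior HOX proteins, 2 times, and both matches overlap TATAAA on one strand or the other. Of 32851 promoters of this length, 13.6% hold TATAAA, 10.9% TTTATNG, 8.30% TTCNNNGAA and 7.15% CACGTG on either strand. These matches are letters only, and the pattern list was written after the sequences were seen.

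Reg3b had 10, 97, 91 and 1 counts in WT_SE mice 1, 2, 3 and 5. In WT_EE mice 1 to 5 it had 79, 0, 51, 7 and 4 counts. Reg3g had 11, 77, 41 and 4 counts in the WT_SE mice and 50, 0, 16, 4 and 8 in the WT_EE mice. WT_SE mice 2 and 3 and WT_EE mice 1 and 3 were the 4 highest for both lectins, and the environments overlapped. These are the 4 mice with more than 100 counts of Slc10a2. WT_EE mouse 2, with 3 counts of Slc10a2, had no count of either lectin, which at the floor of 3 counts allows up to 10.2 CPM.

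On the normalized scale, Reg3b averaged 152 ± 160 CPM (SD over 4 mice) in WT_SE and 62.6 ± 75.0 CPM (SD over 5 mice) in WT_EE. Reg3g averaged 98.2 ± 95.9 CPM (SD over 4 mice) and 34.8 ± 42.8 CPM (SD over 5 mice). The third lectin of the locus, Reg3a, was near the floor, with 9 counts in WT_SE mouse 3, 2 in WT_SE mouse 2, 1 in WT_EE mouse 3 and none elsewhere. Over the last 300 bases of the transcripts, where these libraries count, Reg3b and Reg3g shared no identical run longer than 17 bases.

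**Figure D2:**
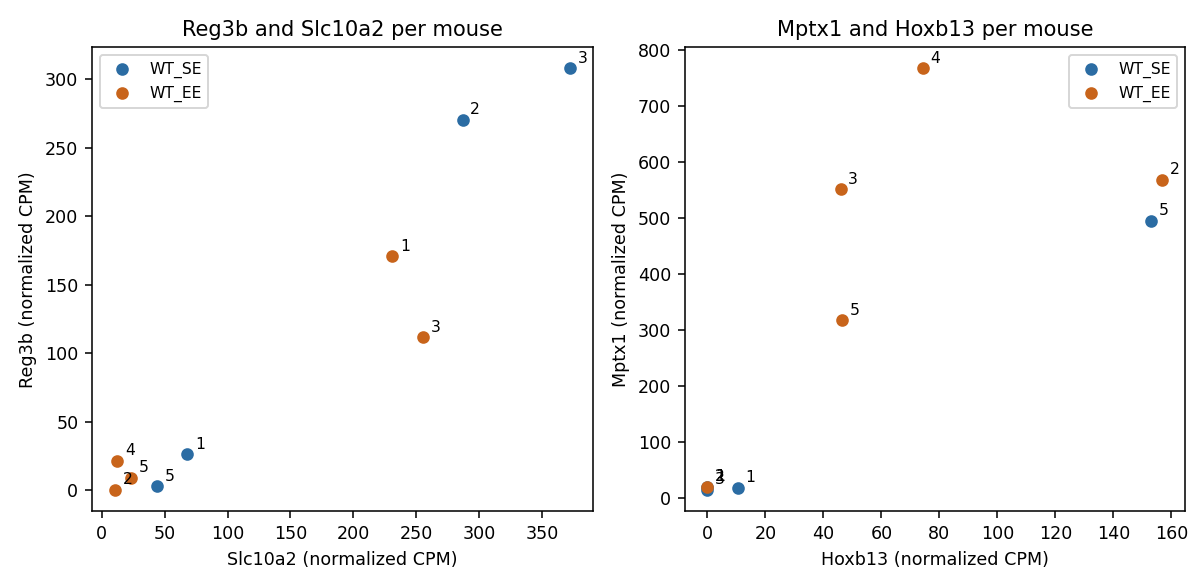
Normalized CPM per mouse of Reg3b against Slc10a2 on the left and of Mptx1 against Hoxb13 on the right, one point per mouse with its number, WT_SE in blue and WT_EE in orange. The 4 mice with the most Slc10a2, from 231 CPM up, have the most Reg3b, from 111 CPM up, and the 5 mice with the most Hoxb13, from 45.9 CPM up, have the most Mptx1, from 317 CPM up.

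Ang4, Mptx1 and Itln1 showed the opposite distribution. Ang4 is a ribonuclease with bactericidal activity on chromosome 14 (51763878 to 51773590, minus strand). Mptx1 is a pentraxin of the mucosa, and pentraxins are ring-shaped proteins that bind microbial surfaces (chromosome 1, 174330518 to 174332873, plus strand). Itln1 is a lectin for microbial glycans (chromosome 1, 171518122 to 171535294, minus strand). Their promoters, in the same format, lie at chr14:51773541-51773840 for Ang4, chr1:174330268-174330567 for Mptx1 and chr1:171535245-171535544 for Itln1, and are shown because these 3 genes were high in the same mice.
Ang4: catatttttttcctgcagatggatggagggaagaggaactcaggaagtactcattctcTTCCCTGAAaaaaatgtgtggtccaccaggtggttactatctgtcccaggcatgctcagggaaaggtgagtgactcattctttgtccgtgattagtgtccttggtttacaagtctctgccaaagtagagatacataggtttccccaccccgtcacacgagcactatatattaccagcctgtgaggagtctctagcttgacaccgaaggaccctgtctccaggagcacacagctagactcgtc
Mptx1: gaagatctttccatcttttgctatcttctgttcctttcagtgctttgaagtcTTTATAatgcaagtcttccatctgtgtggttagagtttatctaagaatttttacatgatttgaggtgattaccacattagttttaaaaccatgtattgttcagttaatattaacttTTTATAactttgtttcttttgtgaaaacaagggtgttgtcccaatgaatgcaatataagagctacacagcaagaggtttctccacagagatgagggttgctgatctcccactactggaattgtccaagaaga
Itln1: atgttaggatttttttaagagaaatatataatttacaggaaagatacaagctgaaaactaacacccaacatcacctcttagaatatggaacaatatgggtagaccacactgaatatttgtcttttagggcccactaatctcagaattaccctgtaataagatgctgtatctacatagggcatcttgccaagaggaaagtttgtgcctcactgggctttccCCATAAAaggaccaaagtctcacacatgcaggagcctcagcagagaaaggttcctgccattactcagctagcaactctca

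Between these 3 promoters 54.8% to 61.8% of aligned bases were the same, and in no pair did an identical run exceed 8 bases. Ang4 holds 1 match to TTCNNNGAA and Mptx1 holds TATAAA on the antisense strand 2 times. Itln1 holds TTTATNG on the antisense strand, starting 30 bases before the start site. None of the 4 patterns is shared by all 3 genes in this window.

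Mptx1 had 7, 7, 4 and 181 counts in WT_SE mice 1, 2, 3 and 5. In WT_EE mice 1 to 5 it had 9, 163, 252, 248 and 137 counts. The 9 mice thus fell into 4 with at most 9 counts and 5 with at least 137, and WT_EE mouse 1 lay with the low WT_SE mice while WT_SE mouse 5 lay with the high WT_EE mice. Ang4 had 15, 24, 3 and 77 counts in WT_SE and 11, 87, 114, 147 and 112 in WT_EE, with the same 5 mice on top. Itln1 was the rarest member, with 0, 1, 0 and 9 counts in WT_SE and 3, 12, 25, 24 and 12 in WT_EE. Its counts were at or under the floor in 4 mice, the same 4 that were low in Mptx1. The 5 high mice are those with 20 to 56 counts of Hoxb13.

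Mean levels were 81.7 ± 88.9 CPM (SD over 4 mice) and 258 ± 155 CPM (SD over 5 mice) for Ang4 in WT_SE and WT_EE. For Mptx1 they were 137 ± 239 CPM (SD over 4 mice) and 444 ± 286 CPM (SD over 5 mice), and for Itln1 6.85 ± 11.9 CPM (SD over 4 mice) and 41.0 ± 25.8 CPM (SD over 5 mice). In each gene the SD of WT_SE exceeded its mean, because mouse 5 stood far above the other 3. Paneth cell genes of the small intestine, where products of this kind are released, were near 0, with at most 3 counts of Lyz1 and 1 of Mmp7 in any mouse. The ileal gene Fabp6 had 0 to 34 counts and the brush-border enzyme gene Sis 0 to 23, and for Sis the mice with 8 or more counts were WT_SE mice 2 and 3 and WT_EE mice 1 and 3, the same as for the Reg3 lectins and Slc10a2.

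Mice low in Slc10a2 were not in every case high in Hoxb13. WT_SE mouse 1 had 26 counts of Slc10a2 and 4 of Hoxb13, and it was low in Reg3b, Mptx1 and Itln1 alike. WT_EE mouse 3 was high for both markers, with 117 and 21 counts, and for both sets of members, with 51 counts of Reg3b and 252 of Mptx1. The Reg3 lectins and the set of Ang4, Mptx1 and Itln1 were therefore not strict alternatives. Summed over each set, WT_EE mouse 3 had 67 Reg3 counts and 391 counts of the other 3 genes. WT_SE mouse 3 had 132 and 7, and WT_EE mouse 2 had 0 and 262.

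**Figure D3:**
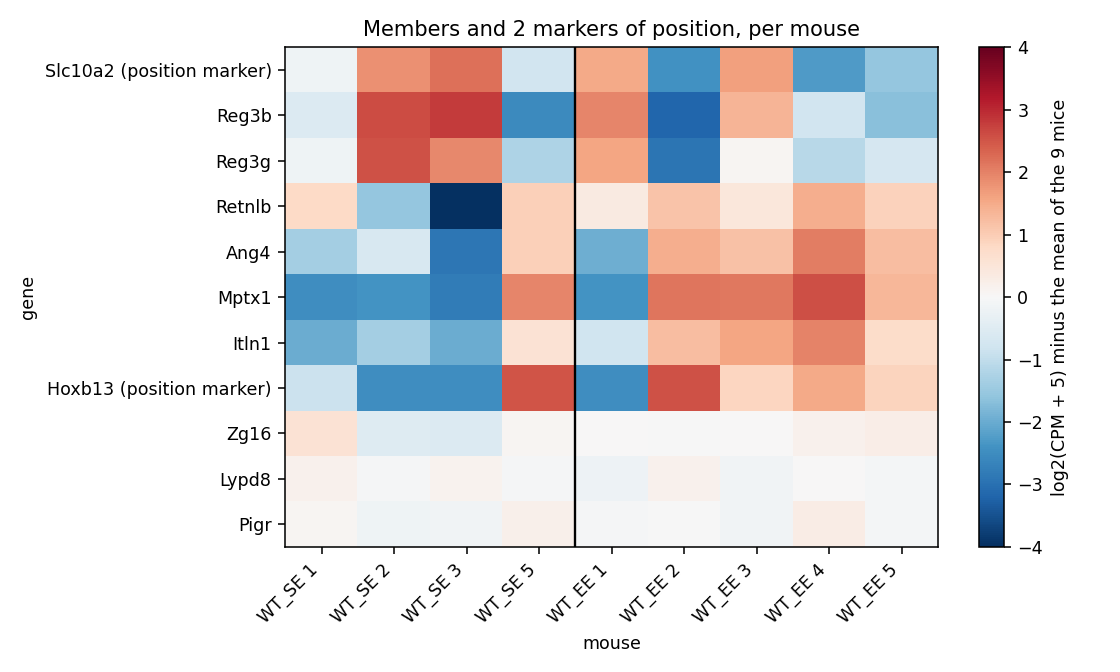
Level of the 9 members and of the position markers Slc10a2 and Hoxb13 in each mouse, as log2(CPM + 5) minus the mean of the 9 mice, red above and blue below that mean, with a line between the 4 WT_SE and the 5 WT_EE mice. Reg3b and Reg3g follow the row of Slc10a2, Mptx1, Ang4 and Itln1 follow that of Hoxb13, and Zg16, Lypd8 and Pigr stay near their means.

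Retnlb, which is made by goblet cells, was lowest in the mice with more than 100 counts of Slc10a2. The gene occupies 48816856 to 48818892 of chromosome 16 (plus strand). It had 121, 21, 1 and 131 counts in WT_SE mice 1, 2, 3 and 5 and 108, 115, 113, 162 and 149 in WT_EE mice 1 to 5. On the normalized scale, WT_SE mice 2 and 3 had 58.5 and 3.38 CPM, and WT_EE mice 1 and 3 had 233 and 247 CPM. These mice had over 100 counts of Slc10a2, and all others had 316 to 501 CPM of Retnlb. The drop was thus far larger in WT_SE mice 2 and 3 than in WT_EE mice 1 and 3. The mean was 184 ± 179 CPM (SD over 4 mice) in WT_SE and 345 ± 111 CPM (SD over 5 mice) in WT_EE. In WT_SE mice 2 and 3 the main mucin gene Muc2 had 250 and 295 counts, inside the 242 to 330 of the other 7. Fcgbp, for another mucus protein of goblet cells, had 90 and 112 counts in them and 110 to 196 in the others. Clca1, a goblet cell gene as well, had 89 and 99 counts in them and 133 to 265 in the others. These counts are not scaled to the library totals, and the genes do not stand for all goblet cell genes.

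Lypd8 and Pigr varied little, and Zg16 varied more, from 355 to 780 CPM among the WT_SE mice. Zg16 is annotated at 127050156 to 127087328 of chromosome 7 (minus strand), where Gm44939 and Gm22747 overlap it on the other strand. Its counts were 299, 130, 105 and 202 in WT_SE and 245, 147, 240, 192 and 270 in WT_EE. That equals 512 ± 201 CPM (SD over 4 mice) and 557 ± 49.4 CPM (SD over 5 mice). Its lowest values, 362 and 355 CPM, were in WT_SE mice 2 and 3, the mice lowest in Retnlb. Lypd8 (chromosome 11, 58379043 to 58390728, plus strand) had 240, 193, 184 and 200 counts in WT_SE and 227, 180, 234, 184 and 232 in WT_EE, equal to 583 ± 47.7 CPM (SD over 4 mice) and 547 ± 53.8 CPM (SD over 5 mice). Pigr (chromosome 1, 130826684 to 130852249, plus strand) had 191, 152, 128 and 199 counts in WT_SE and 215, 136, 198, 188 and 196 in WT_EE. On the normalized scale Pigr was at 475 ± 57.0 CPM (SD over 4 mice) and 481 ± 58.1 CPM (SD over 5 mice). In its promoter, CACGTG, the E-box of the USF type, starts 71 bases before the start site, and no other member with a promoter entry holds it. The highest and lowest mouse differed 1.28-fold for Lypd8, 1.37-fold for Pigr and 2.20-fold for Zg16, all of them in the range of counts that is compressed.

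The comparison of the environments asks whether enriched housing goes with a different epithelial gene profile. No member passed the adjustment over all genes, where 7 of 17441 genes (0.0401%) did (quasi-likelihood F-test of edgeR, Benjamini-Hochberg adjustment). At an unadjusted p under 0.05 in the same test, 5 of the 9 members (55.6%) were called, beside 7.65% of all genes (4.31% higher and 3.34% lower in WT_EE), and nothing is read from that share because the list was drawn up with these values known. Ang4, Mptx1, Itln1 and Retnlb had higher and Reg3g lower fitted levels in WT_EE. An exact permutation test of normalized CPM gave unadjusted p = 0.0397 for Itln1, p = 0.0714 for Ang4 and p = 0.0952 for Mptx1. The exact permutation test gave unadjusted p = 0.159 for Retnlb and p = 0.222 for Reg3g. Of these 5 members, only Itln1 was thus under 0.05 in the exact permutation test. The median log2 fold change (WT_EE over WT_SE) was 0.11 over the members and 0.01 over all genes tested. In none of the 9 genes were the environments free of overlap, which they were for 2.58% of all genes.

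Itln1 had the largest fitted log2 fold change of the members, 2.43 (standard error 0.60). Mptx1 followed with 1.64 (standard error 0.54) and Ang4 with 1.58 (standard error 0.42). Retnlb was at 0.84 (standard error 0.34). The lectins went the other way, Reg3g with -1.32 (standard error 0.50) and Reg3b with -1.09 (standard error 0.55). Zg16 was at 0.11 (standard error 0.16), Pigr at 0.01 (standard error 0.13) and Lypd8 at -0.10 (standard error 0.13), each less than its standard error. In DESeq2 the standard errors of the variable members were wider: 1.16 for Itln1, 1.24 for Mptx1, 0.92 for Ang4 and 0.92 for Retnlb. For Reg3g and Reg3b they were 1.19 and 1.49 in DESeq2. For Zg16, Pigr and Lypd8 they were 0.19, 0.13 and 0.12.

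Single mice decided the size of several values. Without WT_SE mouse 5 the log2 fold change was 4.63 for Mptx1, 4.95 for Itln1, 2.64 for Ang4 and 1.37 for Retnlb. Without WT_EE mouse 1 that of Reg3b was -1.87 and that of Reg3g -2.37. Without WT_SE mouse 1, Zg16 was at 0.40, and without WT_SE mouse 2 or 3 that of Reg3b was -0.60 or -0.51, that of Reg3g -0.53 or -1.11 and that of Retnlb 0.55 or 0.48.

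Neither Slc10a2 nor Hoxb13 passed the test between the environments, with 4 and 5 mice. Of 12 tested genes of a list of position along the colon, 2 were higher and 2 lower in WT_EE. These calls used an unadjusted p under 0.05 in edgeR, which 7.65% of all genes met, and none passed the adjustment. Slc10a2 was above 100 counts in 2 of 4 WT_SE and 2 of 5 WT_EE mice, and the fit gave -0.69 on the log2 scale (standard error 0.47, unadjusted p = 0.151 in edgeR). Hoxb13 was at 20 or more counts in 1 of 4 WT_SE and 4 of 5 WT_EE mice, at 0.49 (standard error 0.62, unadjusted p = 0.439 in edgeR). With the log2 CPM of Hoxb13 as a covariate, a fit added after seeing the data, Reg3b was at 0.21 (standard error 0.35) and Reg3g at -0.27 (standard error 0.31). In that fit Mptx1 was at 1.36 (standard error 0.23) and Ang4 at 1.04 (standard error 0.23). Only 1 WT_SE mouse had more than 4 counts of Hoxb13, so both of these values rest on WT_SE mouse 5 and on a straight line through zero and high counts. With Slc10a2 as the covariate, Mptx1 was at 1.23 (standard error 0.42), Ang4 at 1.04 (standard error 0.32), Itln1 at 2.13 (standard error 0.58), Retnlb at 0.45 (standard error 0.24), Reg3g at -0.60 (standard error 0.32) and Reg3b at -0.21 (standard error 0.26). Among the libraries that share the more common name ending (WT_SE mice 2 and 5 and all WT_EE mice), Mptx1 was at 0.76, Ang4 at 0.86, Itln1 at 1.51, Retnlb at 0.71, Reg3g at -1.53 and Reg3b at -0.97. The other ending holds WT_SE mice 1 and 3 only and gives no contrast.

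**Figure D4:**
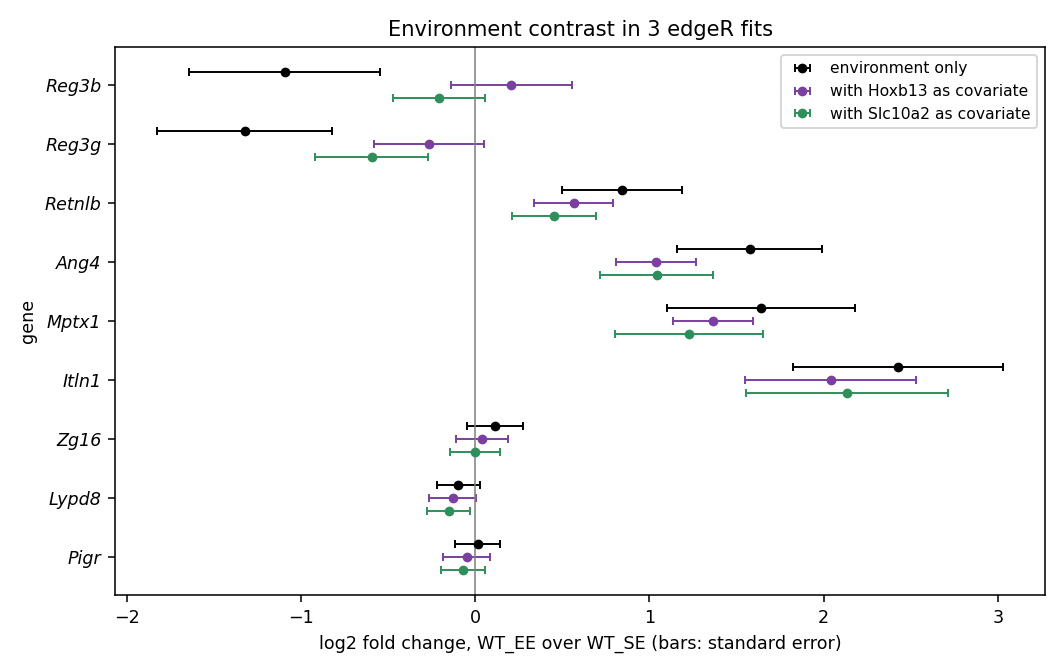
Log2 fold change of each member, WT_EE over WT_SE, with its standard error, in edgeR fits with the environment alone (black), with Hoxb13 as a covariate (purple) and with Slc10a2 as a covariate (green). Reg3b moves from -1.09 to 0.21 and -0.21, while Itln1 stays at 2.04 or above in all 3 fits.

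The same 9 mice were compared for the genes around these products. Of the 41 other antimicrobial genes listed, 27 had a count and 22 were tested. Of these, 4 were higher and 2 lower in WT_EE at an unadjusted p under 0.05, and none passed the adjustment. The higher ones were Sprr2a3, a small proline-rich protein that can act on Gram-positive bacteria, Lgals4, a galectin, Nos2, the inducible nitric oxide synthase, and Duoxa2, which matures the hydrogen peroxide source Duox2. Sprr2a3 has near-identical copies that could share its molecules. Its counts ran from 20 to 45 in WT_SE and from 44 to 101 in WT_EE, and its log2 fold change was 0.98 (standard error 0.24). The copies Sprr2a1, at 0.29 (standard error 0.20), and Sprr2a2, at 0.23 (standard error 0.20), were not called. Counts of Duoxa2 ran from 9 to 21 in WT_SE and from 30 to 50 in WT_EE, without overlap. The fit gave 1.19 on the log2 scale (standard error 0.26), with an adjusted p = 0.0527 in edgeR. The lower ones were Lgals9 and Defb37. Defb37, a beta-defensin, had 3, 24, 37 and 1 counts in WT_SE and 5, 0, 30, 1 and 2 in WT_EE, so that it was high in 3 of the 4 mice high in the Reg3 lectins. The list's summed level was 2704 ± 158 CPM (SD over 4 mice) in WT_SE and 3023 ± 330 CPM (SD over 5 mice) in WT_EE (exact permutation test, two-sided, p = 0.151, adjusted p = 0.565 over the 15 lists), and the mean of log2 CPM over its genes gave p = 0.00794 in the same exact test, the smallest possible. Neutrophil antimicrobials were absent or near 0, with at most 1 count of Lcn2 and none of S100a8, S100a9, Camp or Ltf.

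The relatives of the members differed widely in level. Of 20 paralogs listed, 11 had a count. Retnla had 1 to 15 counts per mouse, Retn 0 to 9 and Retnlg 0 to 1. Ang had 3 to 30 counts, its neighbour Rnase4 33 to 103, Rnase1 0 to 2 and Ang5 0 to 1. The last 300 bases of Ang4 and Ang5 share an identical run of 79 bases, and molecules of one could be counted for the other, though Ang5 had at most 1 count. Reg4, a lectin of deep crypt secretory cells, had 47 to 88 counts, and Reg1 and Reg2 had at most 2. Rnase4 and Reg3a were the paralogs with an unadjusted p under 0.05, both lower in WT_EE.

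The goblet cell list stood at 5318 ± 644 CPM (SD over 4 mice) in WT_SE and 5317 ± 710 CPM (SD over 5 mice) in WT_EE (exact permutation test, two-sided, p = 1.0). Of its 18 genes, Clca1, a mucus-processing protease, was higher at an unadjusted p under 0.05, and the trefoil peptide Tff3 and the chemokine Ccl6 were lower. Surface epithelium genes summed to 3948 ± 340 CPM (SD over 4 mice) and 3916 ± 471 CPM (SD over 5 mice) (exact permutation test, two-sided, p = 0.889), and of the 14 genes the homeobox gene Cdx2 was lower, at 32 to 45 counts in WT_SE mice and 13 to 33 counts in WT_EE mice. Smooth muscle genes summed to 2850 ± 328 CPM (SD over 4 mice) and 3473 ± 954 CPM (SD over 5 mice) (exact permutation test, two-sided, p = 0.310), with 4 of 10 genes (Acta2, Des, Smtn and Lmod1) higher at an unadjusted p under 0.05. The most counted genes of these 3 lists, Muc2 (mean 281 counts), Cdh1 (167) and Mylk (192), are in the compressed range. Differences between the sums can therefore be understated. In bulk tissue, fewer cells of a type and less RNA per cell cannot be told apart.

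Pigr carries IgA joined by the J chain. Counts of the IgA heavy chain gene Igha ran from 110 to 130 in WT_SE and from 113 to 211 in WT_EE, and those of Jchain from 73 to 135 and from 99 to 153. The 17 measured IgA and plasma cell genes summed to 1599 ± 119 CPM (SD over 4 mice) and 1741 ± 128 CPM (SD over 5 mice) (exact permutation test, two-sided, p = 0.151). Igkc, with a mean of 153 counts, led this sum and is in the compressed range. Of the 17 genes tested, Ighg2b, Iglc1 and Derl3 were higher and Ighm and Iglc3 lower at an unadjusted p under 0.05, and counts of these antibody genes can be split among paralogs. Among 24 tested genes of the IL-17, Toll-like receptor and interferon routes that induce Pigr, Nfkbiz, an NF-kappaB co-regulator, was higher at an unadjusted p under 0.05 (25 to 34 counts in WT_SE against 41 to 57 in WT_EE), and the median log2 fold change of the list was 0.07.

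The cytokines that induce Reg3 lectins and Retnlb were hardly counted. Il22 and Il4 had no count, and Il13 and Il25 had at most 1 count per mouse. The receptor chain Il10rb had 35 to 64 counts and Stat3 58 to 111. Of 15 tested IL-22 and STAT3 genes, Nfil3 was higher and Fut2 lower at an unadjusted p under 0.05, and of 11 tested IL-4 and IL-13 genes none was called. The most counted of the latter were the kinase gene Jak1, with 87 to 129 counts over the 9 mice, and the receptor gene Il13ra1, with 22 to 57. In the lists of other cells and tissues, the calls were 1 of 9 fat genes (Plin1, lower), 1 of 8 small intestine genes (Apob, lower), 3 of 8 B cell follicle genes (Cr2, Ms4a1 and Cd79b, lower) and 1 of 12 T cell, macrophage and neutrophil genes (Ly6g, higher). Ly6g had 35 counts in WT_EE mouse 2, but 1 to 5 in the other WT_EE mice and 0 to 9 in WT_SE. The B cell follicle genes summed to 6.76 to 78.3 CPM in WT_SE and at most 12.95 CPM in WT_EE, and their part in the results was not tested. The fat genes summed to 963 CPM in WT_SE mouse 1 at the highest, and the pancreas genes, led by Cpb1 and Prss2 with at most 2 counts each, to at most 6.19 CPM in any mouse. Of 12 tested genes of the position list, Hoxa10 and Hoxa11 were higher and Hoxd11 and Hoxb8 lower at an unadjusted p under 0.05. Of all genes, 7.65% were called at that limit. None of the genes named here passed the adjustment over all genes.

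The genes most like each variable member were sought among 5812 genes with a mean of at least 20 counts, by Pearson's r of log2 CPM over the 9 mice. These mice fall into clusters, so r mostly restates which mice were high and carries no test. Within that set, which leaves out Itln1 for its low counts, Ang4 and Mptx1 were each other's closest gene (r = 0.946). The closest to Itln1 was Mptx1, with a higher r of 0.962. The closest gene to Reg3g was Reg3b (r = 0.944), and the closest to Reg3b was Slc51a (r = 0.975), a subunit of the basolateral bile acid exporter, with 35, 82, 80 and 8 counts in WT_SE and 66, 6, 85, 16 and 12 in WT_EE. Also among the 5 genes nearest to Reg3b was the transcription factor gene Osr2, with 7, 93, 81 and 1 counts in WT_SE and 84, 0, 89, 0 and 0 in WT_EE. The other bile acid exporter subunit, Slc51b, was among the 5 nearest to Reg3g (r = 0.914).

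Retnlb was nearest to Aqp8 (r = 0.989), a water channel of the colonic surface, which had 81, 17, 2 and 110 counts in WT_SE and 68, 107, 68, 111 and 101 in WT_EE. Aqp8, like Retnlb, was lowest in WT_SE mice 2 and 3. The next genes were Hoxa7 (r = 0.984), the chloride channel accessory gene Clca4a (r = 0.981), Hoxa11os (r = 0.980) and the water channel Aqp4 (r = 0.974). Among the 5 genes nearest to Ang4, Mptx1 or Itln1 were the gasdermin Gsdmc4, the ecto-nucleotidase Nt5e, the small GTPase Rras, the integrin Itga9 and the interleukin-1 receptor antagonist Il1rn. The steadier members Zg16, Lypd8 and Pigr had no other member among their 5 nearest genes.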

How the data were processed

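RNA of 9 wild-type colons was sequenced as QuantSeq 3′ libraries with molecular identifiers. Per the labels, the authors used fastp 0.20.0, STAR 2.7.0f, featureCounts 1.6.0, Subread and UMI-tools on GRCm38.p6 (roles and order are not given in the sources used here). They deposited counts of molecules per Ensembl gene, whole numbers without normalization. A gene missing from a library was taken as 0 counts.

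The 9 members, the other lists and the tests were chosen with earlier results of these data known. Of 22262 genes, 22248 had a symbol from the annotation (GENCODE mouse release M21, GRCm38). Genes with at least 4 CPM in 1 library were kept. Counts were fitted in R 4.3.3 with edgeR 4.0.16 (TMM, quasi-likelihood test in its earlier form, environment as the term), with Benjamini-Hochberg adjustment over all 17441 genes. A standard error is the log2 fold change divided by the square root of F. CPM values used TMM-scaled library sizes. Exact permutation tests ran in python 3.11.15 with scipy 1.17.1. Log2 CPM for likeness used a prior count of 2. Pairs of libraries of one environment had a chi-square per degree of freedom of 1.17 to 2.30, so none was taken as a repeat. The steps were tested on simulated counts.

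Named were all members, paralogs with a count, list genes with an unadjusted p under 0.05 (apart from 1 that is not reported here, and in lists without one, the 2 most counted), and some of the 5 genes most like each member. Outside this rule, the position markers Slc10a2 and Hoxb13, mt-Co1, Sis, Fabp6, Lyz1, Mmp7, Muc2, Fcgbp, Igha, Jchain, Il10rb, Stat3, and the cytokine and neutrophil genes at or near 0 were named after their values were seen. So were Gm42418, Sprr2a1 and Sprr2a2. Correlations with permutation p-values were computed for all 36 pairs of members, but for 7 of 9 members the largest gap between ordered mice exceeded 30% of the range, so that the mice form clusters and no test of a pair that holds one of these is given. For the other pair, Reg3g and Pigr, r was -0.58 (permutation p = 0.101, adjusted 0.183) and Spearman's rho -0.75 (permutation p = 0.0255, adjusted 0.0918). Without the 2 mice farthest from the median r was -0.69. Reg3g was only just under the 30% limit, at 29.96%, and Pigr is in the compressed range. The values of this pair are therefore a description as well. Alternatives covered filters, normalization, tests (DESeq2 1.42.0, limma 3.58.1), covariates and left-out mice.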

Additional observations from a re-analysis of the deposited data

Results flagged for a closer look

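Among 18 groups of 4 or 5 mice (9 genes in each environment), 3 held a value far from the other mice by Dixon's criterion, where chance gives about 1 in 20. Mptx1 stood at 494.7 CPM (181 counts) in WT_SE mouse 5, and the other 3 WT_SE mice lay between 13.5 and 19.5 CPM. Itln1 stood at 24.6 CPM (9 counts) in the same mouse, and the others lay between 0 and 2.78 CPM. This mouse also had the highest count of Hoxb13, 56. Pigr stood at 581 CPM (188 counts) in WT_EE mouse 4, and the other 4 WT_EE mice lay between 433 and 474 CPM. Its count in that mouse lay inside the WT_EE range of 136 to 215. The library total was 336967, and counts of this size grow less than in proportion to the total. The part of this scaling in the flagged value was not tested.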

How the results depend on the processing

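Low counts limit Itln1 and several paralogs. Compression of high counts limits Zg16, Lypd8, Pigr, Mptx1 and Retnlb, and Ang4 in its highest mice. It also limits the summed levels of the goblet cell, epithelium, smooth muscle, IgA and other antimicrobial lists. The alternatives use the same 9 libraries in which the members' contrast was known, so the counts of members called are a description. The environment fit called 7 genes and 0 members after adjustment, and 1334 genes (7.65% of those tested) and 5 members at an unadjusted p under 0.05. After adjustment, no filter on low counts gave 143 of 22262 genes and 6 members. Out of 17441 genes, the likelihood ratio test gave 43 genes and 1 member, and the epithelium mean as a covariate 90 and 4. The posterior Hox mean gave 17 and 2, and Hoxb13 23 and 2, out of as many. Leaving out immunoglobulin genes gave 19 genes and Slc10a2 as a covariate 2. filterByExpr, DESeq2, limma-voom, the newer quasi-likelihood test, the name ending as a covariate and leaving out the libraries of the other ending gave 0. Unadjusted, filterByExpr tested 8590 genes and gave 804 (9.36%) and 3 members. DESeq2 gave 643 genes (3.69%) and 1 member, and the ending covariate 688 (3.94%) and 3. Leaving out the other ending gave 680 (3.98%) and 3, and Slc10a2 1174 (6.73%) and 3. Leaving out 1 mouse gave 0 to 48 genes and 0 to 4 members after adjustment. Before it, this gave 899 to 1581 genes (5.19% to 9.14%) and 3 to 7 members. The replicate numbers do not pair the mice, which are different animals: correlations of same-numbered mice ran from -0.0222 to 0.152, and no mouse correlated best with its own number. With the replicate block over 8 mice, 77 genes and 5 members were called after adjustment, and Pigr was at -0.0494. Signs turned for values near 0 and, in 1 fit, for Reg3b. Pigr was at -0.0263 with upper quartile scaling, -0.00187 with limma-voom, -0.0117 with the ending covariate, -0.000631 without the other ending, -0.0482 with Hoxb13 and -0.0708 with Slc10a2. Lypd8 was at 0.00803 with the ending covariate and 0.0199 without the other ending, and Zg16 at -0.00165 with Slc10a2. Reg3b, at -1.09 in the main fit and so not near 0, was at 0.208 with Hoxb13. Leaving out 1 mouse gave -0.0545 to 0.0905 for Pigr and -0.0217 to 0.395 for Zg16. The same gave log2 ratios of summed levels of -0.0778 to 0.0554 for goblet cell genes and -0.0704 to 0.0273 for epithelium. With upper quartile scaling 45% of unadjusted calls were higher in WT_EE, against 56.3%, and the median of all genes was -0.0355. The cause of these changes was not tested.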
